A study of Mus musculus with 8 samples.

Results

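The genes described here are the 76 cytosolic ribosomal protein genes among the 22863 genes listed in both count tables of the series, chosen by name and not by their values. The rule took symbols of the form Rpl or Rps followed by a number, with Rplp0, Rplp1, Rplp2 and Rpsa, listed in both count tables, and set 1 gene of the family aside. It matched 84 symbols at E11.5 and 89 at E12.5 and 83 in both. A requirement of at least 100 counts in every cortex kept 76 genes, 46 of the large subunit and 30 of the small subunit, and all comparisons below are on these 76. Of the genes kept, Rpl22l1 had the fewest counts in its lowest cortex, 1043. Of those left out by this requirement, Rpl34 had the most, 56.

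The protein part of the cytosolic ribosome is encoded by a large family of genes, nearly all named Rpl (large subunit) or Rps (small subunit), whose products assemble with ribosomal RNA in the nucleolus in fixed proportions. Most of their mRNAs are short, abundant and carry a run of pyrimidines at their first bases, the 5′ terminal oligopyrimidine tract, through which the kinase complex mTORC1 adjusts their translation. Proliferating radial glial cells, the stem cells of the embryonic cortex, use many ribosomes, and free Rpl5 and Rpl11 can bind Mdm2 and so stabilize p53 when assembly fails.

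These genes were followed in poly(A)-selected RNA from embryonic mouse cortices, sequenced as directional libraries. At E11.5 and at E12.5 there were 2 Mboat7+/- embryos and 2 Mboat7-/- embryos, 8 cortices in all, on a C57BL/6N background. The mutation is a global knockout of Mboat7, which encodes an acyltransferase that places arachidonic acid in phosphatidylinositol, and the Mboat7+/- controls also carry 1 mutant allele. Embryos were taken regardless of sex, and each stage was sequenced by its own provider and counted in its own table, so stage and provider cannot be told apart.

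Total counts lay between 21843330 and 28189771 per cortex at E11.5 and between 20799311 and 23330432 at E12.5. The Mboat7 count was 700 and 876 in E11.5 Mboat7+/- cortices against 1103 and 860 in those labelled Mboat7-/-, and 739 and 782 against 730 and 729 at E12.5. The targeted transcript was thus not lower at E11.5, and each direction below rests on the labels. Xist, which marks female embryos, had 17875 counts in E11.5 Mboat7+/- replicate 1 and at most 2 in each other cortex. Markers of radial glial cells, intermediate progenitors and neurons were all detected, as were those of red blood cells and mesenchyme.

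The pyrimidine tract is the sequence feature by which this family is best known, so the 30 bases around the annotated start are shown for the 4 members with the longest run and for 4 members with small p at E11.5. Sequences are from RefSeq (GRCm38.p6), which had an entry for 57 of the 76 members, and each begins 15 bases before the start. Capitals mark the longest run found, which begins with a C within 10 bases of the start that follows a purine or stands at the edge of that interval. It takes in every C or T after it without a break, as far as the window reaches.
Rpl27a, chr7:109519180-109519209, plus strand: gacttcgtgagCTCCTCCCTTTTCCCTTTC
Rpl35, chr2:39005117-39005146, minus strand: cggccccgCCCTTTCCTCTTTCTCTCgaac
Rpl7a, chr2:26910792-26910821, plus strand: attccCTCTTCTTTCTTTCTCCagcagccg
Rpl15, chr14:18270972-18271001, minus strand: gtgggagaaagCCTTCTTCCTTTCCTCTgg
Rpsa, chr9:120127751-120127780, plus strand: gtgggttatttaaggaCgtcatttccggcc
Rpl37, chr15:5116598-5116627, plus strand: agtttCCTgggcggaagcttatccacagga
Rpl27, chr11:101442230-101442259, plus strand: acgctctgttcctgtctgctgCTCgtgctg
Rpl28, chr7:4792950-4792979, plus strand: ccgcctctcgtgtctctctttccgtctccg

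A run of at least 6 pyrimidines of this kind was found on the sense strand for 21 of the 57 members (36.8%), against 17.2% of all 27025 genes with an entry and 23.2% of 69 mitochondrial ribosomal protein genes. Annotated starts can lie several bases from the base at which transcription begins, so no match says only that these letters are not in this window. Rpl28, for example, has a pyrimidine run near its start that follows a G and begins with T. At E11.5 the median log2 fold change between genotypes was -0.13 for the 21 members with the run, -0.15 for the 36 without it and -0.14 for the 19 without an entry. At E12.5 these medians were -0.09, -0.08 and -0.08.

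The family's share of all counts was taken first, beside which it holds that in bulk tissue fewer cells of a type and less RNA per cell cannot be told apart. At E11.5 the 76 genes took 5.28% and 5.32% of the counts of the Mboat7+/- cortices, against 5.00% and 4.69% for the cortices labelled Mboat7-/-. Both values of the first genotype lay above both of the second, 5.30% ± 0.0327 (SD, n = 2) against 4.85% ± 0.220 (SD, n = 2). At E12.5 the shares were 4.76% and 5.47% (Mboat7+/-) and 5.2004% and 4.66% (labelled Mboat7-/-). Here the genotypes overlapped, 5.11% ± 0.505 (SD, n = 2) against 4.93% ± 0.379 (SD, n = 2), and cortices of the same genotype lay further apart than the genotype means. No test was made on these sums.

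Within a cortex the members deviated together. On CPM, counts scaled to TMM-normalized library size, each member was compared with its mean over the 4 cortices of its stage. At E11.5 the median member was 0.07 and 0.09 above that mean (log2) for the Mboat7+/- cortices, and 0.02 and 0.13 below it for the cortices labelled Mboat7-/-. The number of members above the mean was 68, 75, 21 and 0. At E12.5 the median deviation was -0.07 and 0.16 for Mboat7+/-, then 0.07 and -0.15 for the cortices labelled Mboat7-/-, with 1, 76, 74 and 3 members above the mean. Over all tested genes, between 49.1% and 52.5% were above it in any cortex of either stage. The SD over members inside 1 cortex was 0.03 to 0.06, so at E12.5 the shift of the whole family between replicates was larger than the spread of its members.

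**Figure D1:**
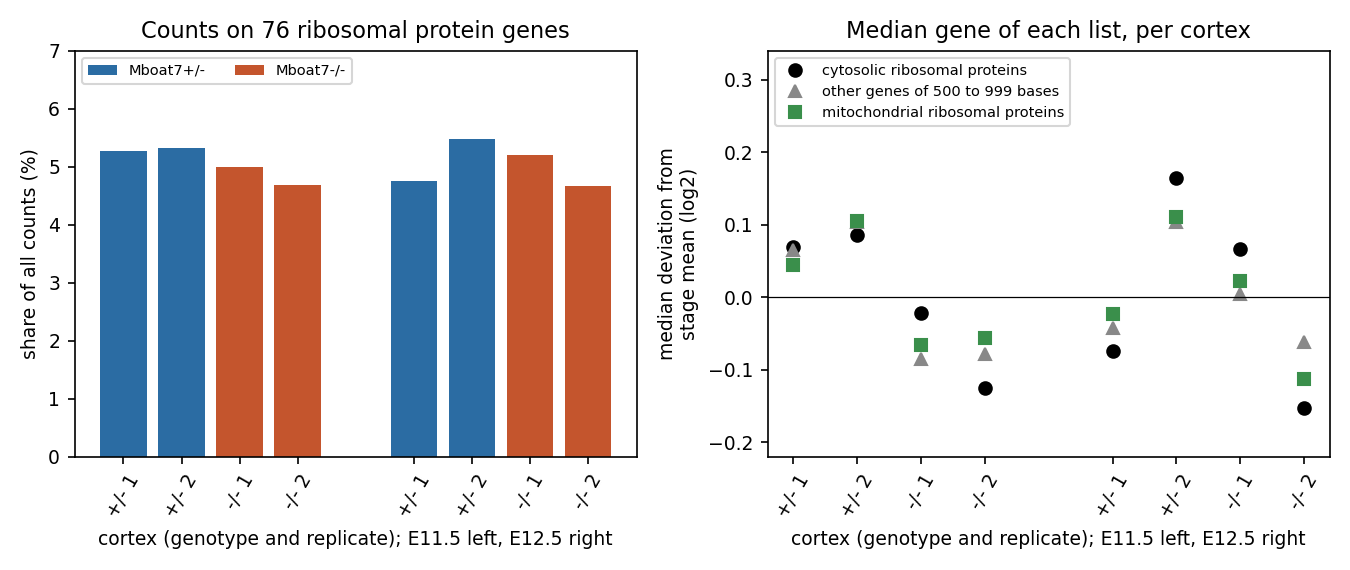
Left, the share of all counts (%) that fell on the 76 ribosomal protein genes in each cortex, E11.5 then E12.5, with bars colored by labelled genotype. Right, the median deviation from the stage mean (log2 CPM) for these genes, for mitochondrial ribosomal protein genes and for other genes of 500 to under 1000 bases: at E11.5 the cytosolic ribosomal protein genes were above 0 in both Mboat7+/- cortices and below 0 in both labelled Mboat7-/-, while at E12.5 each genotype had 1 cortex on either side.

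The difference between replicates was therefore measured directly. In E12.5 Mboat7+/- cortices, all 76 members were higher in replicate 2 than in replicate 1 (all tested genes, 8057 of 16326). The median difference was 0.24 on the log2 scale. In the E12.5 cortices labelled Mboat7-/-, 73 of 76 were lower in replicate 2 than in replicate 1 (all tested genes, 8006 of 16326). The median difference was -0.21. Respiratory chain subunit genes shifted likewise, with 46 of 46 higher (median 0.19) and 43 of 46 lower (-0.12). So did mitochondrial ribosomal protein genes, with 73 of 78 higher (0.14) and 71 of 78 lower (-0.14). Other genes of 500 to under 1000 bases had medians of 0.14 and -0.05. At E11.5 the corresponding medians of the 76 members were 0.02 (49 higher, all tested genes 7510 of 14935) and -0.10 (67 lower, all tested genes 7774 of 14935). The largest of these within-genotype shifts exceeded the median difference between genotypes at either stage, given next.

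To ask whether ribosomal protein mRNAs changed with the loss of Mboat7 at E11.5, 14935 genes that passed a count filter, all 76 members among them, entered edgeR's quasi-likelihood test. Nearly the whole family was slightly lower in the cortices labelled Mboat7-/-: 75 of 76 members had a log2 fold change below 0 (all genes, 51.1%), with a median of -0.144 against -0.005 for all tested genes. This is a level 0.905 times that of the Mboat7+/- cortices. No member had a Benjamini-Hochberg FDR under 0.05 (0% of all genes), and the smallest FDR was 0.174. At an unadjusted p under 0.05, 40 members were lower (52.6%, background 6.07%) and none was higher. The genotypes were separated, with the Mboat7-/- label on the lower side, for 63 members (82.9%, background 23.3%). DESeq2 called 2 members, Rpsa among them (2.63%, background 1.19%), and edgeR's exact test called 1 (1.32%, background 1.18%).

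The replicate number is also the batch of the labels, and with it as a block 8 members passed an FDR of 0.05, all lower (10.5%, background 3.38%). They included Rpl21, Rpl27, Rpl29, Rpl37 and Rpsa and, named after their values were seen, Rps12 and Rps26. Leaving out 1 cortex moved the counts widely. Without the second cortex labelled Mboat7-/-, 7 members had an FDR under 0.05 (9.21%), a share near that of all genes in that fit (7.72%). Lower at an unadjusted p under 0.05 were 23 members in that fit (30.3%, background 10.2%) and 64 without the first cortex labelled Mboat7-/- (84.2%, background 5.88%). The number was 20 without Mboat7+/- replicate 1 (26.3%, background 2.91%) and 11 without Mboat7+/- replicate 2 (14.5%, background 1.99%). The median stayed below 0 in all 4 of these fits, from -0.195 to -0.095.

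Several members with small p or great fold change at E11.5 are given in full. Rpsa, a small subunit protein also known as the laminin receptor precursor, was at 2080.5 and 1979.8 CPM in the Mboat7+/- pair and 1740.2 and 1672.5 CPM in the pair labelled Mboat7-/-. This was a log2 fold change of -0.25 (standard error 0.05, unadjusted p = 0.00121, FDR = 0.174, edgeR quasi-likelihood test). The genotypes did not overlap, and their distance was above that between replicates.

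Rpl37 was at 394 and 383 CPM against 328 and 325 CPM, a log2 fold change of -0.25 (standard error 0.06). Rpl27 was at 428 and 422 CPM against 359.9 and 365 CPM, a log2 fold change of -0.23 (standard error 0.06). Rpl28 was at 602 and 608 CPM against 518 and 525 CPM, a log2 fold change of -0.21 (standard error 0.05). These proteins all belong to the large subunit, replicates of each differed by little, and none of the 3 genes had overlapping genotypes.

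Rpl21 stood at 258 and 261 CPM against 208 and 229 CPM, which gave -0.25 on the log2 scale (standard error 0.07). Rpl29 was at 528 and 551 CPM against 472 and 444 CPM, a log2 fold change of -0.24 (standard error 0.06). Both pairs were separated by genotype. The FDR of the 5 genes from Rpl37 on lay between 0.174 and 0.203 (edgeR quasi-likelihood test). Over the 76 members, log2 fold changes had an SD of 0.06 and a median standard error of 0.06, and 53 lay within 1 standard error of the family's median.

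**Figure D2:**
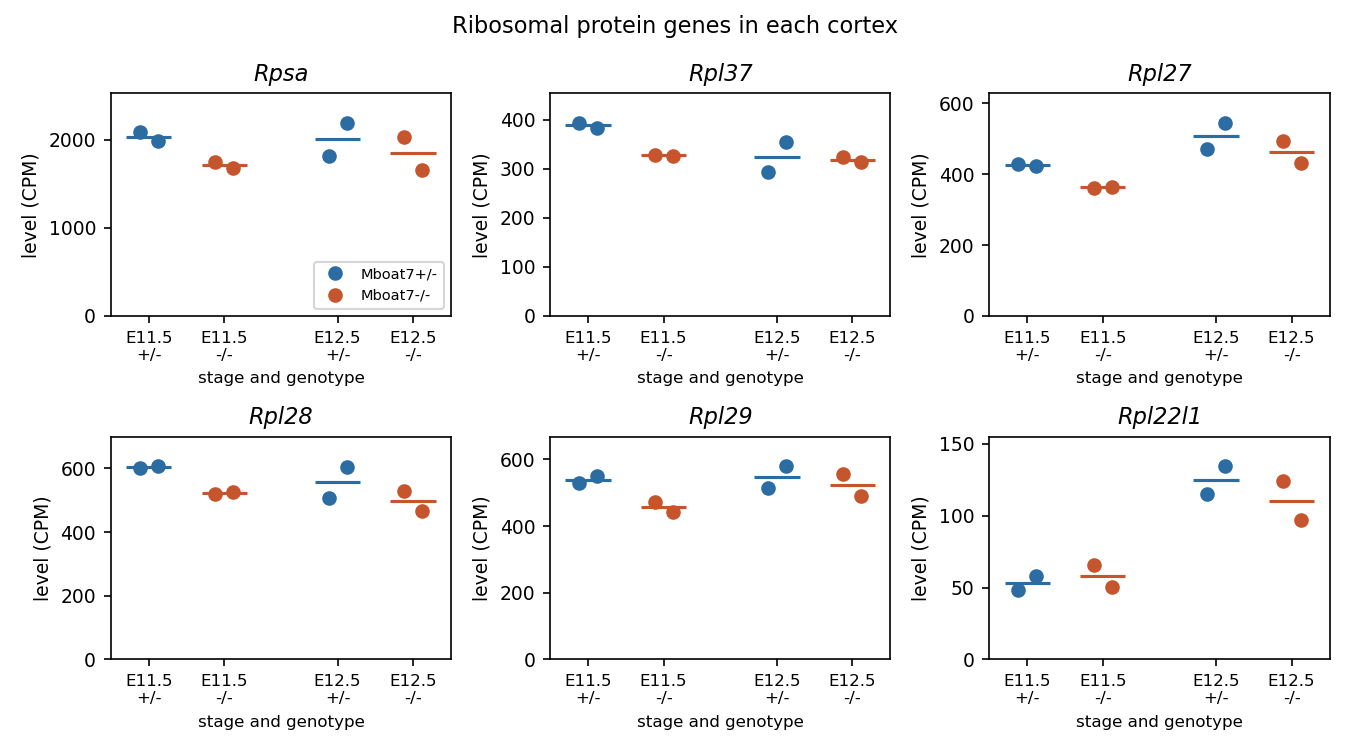
Level (CPM) of 6 ribosomal protein genes in each cortex, by stage and labelled genotype; points are single cortices and lines are means of 2 cortices. Rpsa, Rpl37, Rpl27, Rpl28 and Rpl29 are separated by genotype at E11.5 and overlap at E12.5, and Rpl22l1, the member with the lowest CPM at E11.5, overlaps at both stages.

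Taken by subunit, 45 of 46 large subunit genes and all 30 small subunit genes had a log2 fold change below 0 at E11.5 (all genes, 51.1%). Their medians were -0.145 and -0.137. An unadjusted p under 0.05 was reached by 26 and 14 of them, all lower (all genes, 6.07% lower at that p). The P stalk, where elongation factors dock, consists of Rplp0, Rplp1 and Rplp2. Rplp0 was at 1808 and 1680.2 CPM against 1626.2 and 1509.3 CPM, Rplp1 at 711 and 779 CPM against 690.3 and 622 CPM, and Rplp2 at 499 and 516 CPM against 486 and 446 CPM. Their log2 fold changes were -0.15, -0.18 and -0.12, with the genotypes separated for all 3, and FDRs from 0.2996 to 0.419.

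Rpl5 and Rpl11, which bind 5S ribosomal RNA and, when free, Mdm2, had log2 fold changes of -0.08 and -0.14 at E11.5. Rpl5 was at 940.3 and 928 CPM against 929 and 835 CPM and overlapped by 1 cortex. Rpl11 was at 678 and 691 CPM against 645 and 597 CPM and did not. Of 16 members whose human counterparts are mutated in Diamond-Blackfan anemia, a red cell disorder, all 16 were below 0 (all genes, 51.1%). Of these, 8 had an unadjusted p under 0.05 (all genes, 6.07% lower at that p). The median of the 16, -0.15, was close to that of the family.

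The 4 members on the X chromosome were read beside Xist, since 1 E11.5 cortex was Xist-positive. Rpl10 was at 795 and 791 CPM against 742 and 689 CPM, and Rpl36a at 264 and 274 CPM against 261 and 248 CPM. Rpl39 was at 172 and 215 CPM against 189.5 and 189.5 CPM, and Rps4x at 1039.2 and 1071.5 CPM against 1028.6 and 955 CPM. Their log2 fold changes ran from -0.15 (Rpl10) to -0.03 (Rpl39), and the Xist-positive cortex was the lowest of the 4 for Rpl39 only.

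Among 4 paralogs, 3 were below 0. Rpl22l1, a paralog of the large subunit gene Rpl22, was the only member with a log2 fold change above 0 at E11.5, 0.13 (standard error 0.14). Its values of 48.2 and 57.8 CPM against 65.7 and 50.2 CPM overlapped, and its FDR was 0.715. Rpl36al, a copy of Rpl36a, was at 140.2 and 130.4 CPM against 121 and 115 CPM (log2 fold change -0.19, FDR 0.297). Rps27l, a relative of Rps27 known to be induced by p53, was at 89.8 and 91.2 CPM against 85.1 and 80.9 CPM (-0.12), and Rpl7l1, a relative of Rpl7, at 180.1 and 185 CPM against 175 and 167 CPM (-0.09). Both were separated by genotype with FDRs of 0.493 and 0.551.

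Fold changes at E11.5 followed transcript length across the other genes of the table, and most members are short. Their principal transcripts had a median length of 853 bases (383 to 5179). For 766 other genes of 500 to under 1000 bases the median log2 fold change was -0.162, which is below the family's -0.144. Of them, 79.2% were below 0 and 18.3% were lower at an unadjusted p under 0.05, against 98.7% and 52.6% of the members. The 3076 other genes of 1000 to under 2000 bases had a median of -0.10, above that of the family. In that class 70.4% were below 0 and 11.7% were lower at that p. Longer classes had medians of -0.02 (6083 genes, 2000 to under 4000 bases), 0.10 (3924 genes, 4000 to under 8000 bases) and 0.19 (714 genes, at least 8000 bases). In each cortex, the slope of a gene's deviation on log2 length (members left out) was -0.035 and -0.044 for E11.5 Mboat7+/- and 0.038 and 0.041 for the E11.5 label Mboat7-/-. At E12.5 it was 0.022 and -0.056, then 0.00061 and 0.034, in the same order. Within the family itself, fold change did not follow annotated length. Over the 76 genes, which share libraries, Pearson's r with log2 length was 0.03 (E11.5) and -0.07 (E12.5). The 6 members of at least 2000 bases were all below 0, with medians of -0.11 and -0.06. They include Rps15a and Rps20, annotated at 5179 and 3706 bases. At E11.5 these stood at 81.7 and 141.6 CPM per kilobase, against a median of 670.2 over the members. A shorter expressed isoform would place a member elsewhere on this axis, so r depends on the annotation. At both stages the cortices ranked by this slope were in the reverse order of their median ribosomal protein deviation.

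A trend on length and GC was then taken out of every library. At E11.5 the median log2 fold change of the 76 members became -0.021, against -0.017 for all tested genes, and 50 of 76 were below 0 (65.8%, background 54.4%). Lower members with an unadjusted p under 0.05 numbered 7 (9.21%, background 4.51%). With the replicate block in the same fit, 3 members had an FDR under 0.05, namely Rps15a, Rps20 and Rpsa, all lower, a share (3.95%) near that of all genes (2.81%). These were named after their values were seen. The log2 fold change of Rpsa was -0.21 in that fit, and those of Rps15a and Rps20 were -0.26 and -0.23. The annotated principal transcripts of Rps15a and Rps20 span 5179 and 3706 bases, and a shorter isoform would receive a different correction.

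**Figure D3:**
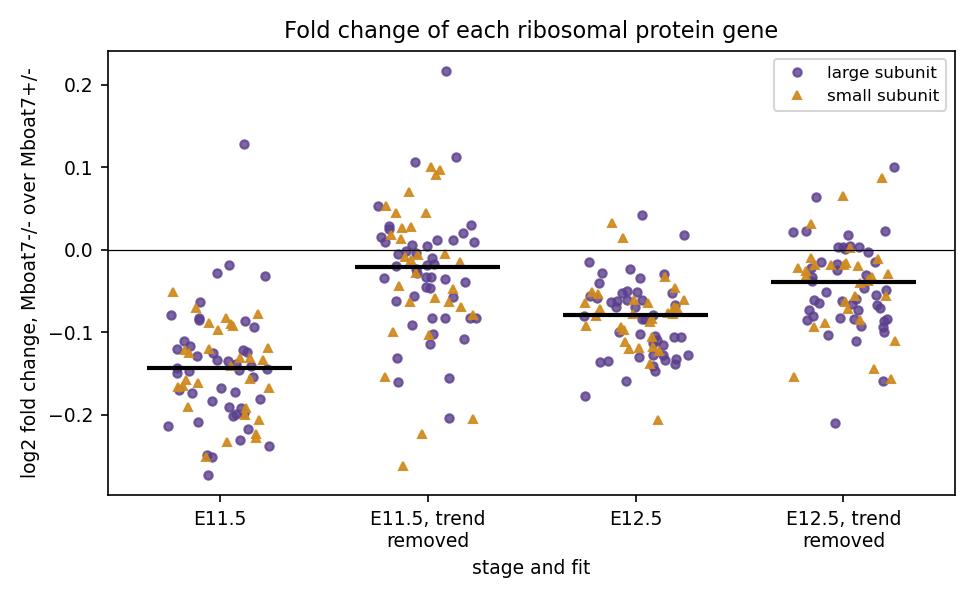
Log2 fold change (Mboat7-/- over Mboat7+/- as labelled) of each of the 76 ribosomal protein genes at each stage, before and after a length and GC trend was removed from every library; circles are large subunit genes, triangles small subunit genes and black lines medians. The medians are -0.144 before and -0.021 after at E11.5, -0.080 before and -0.039 after at E12.5.

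**Figure D4:**
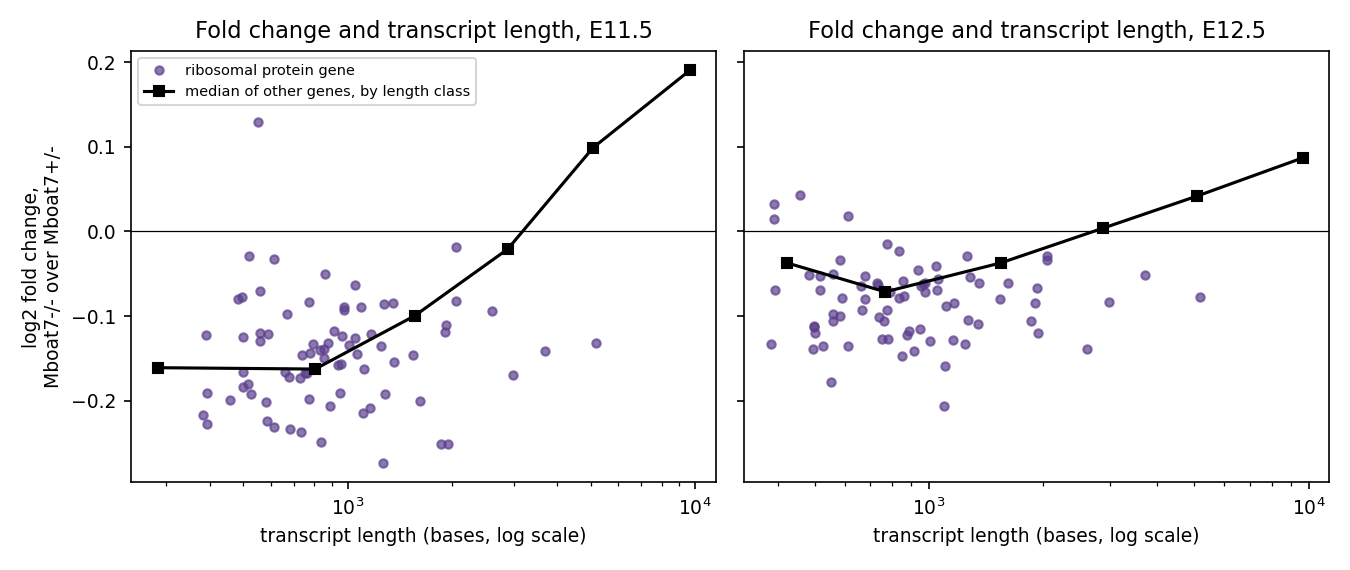
Log2 fold change against transcript length (bases, log axis) for the 76 ribosomal protein genes (points) and the median of all other tested genes by length class (squares), at E11.5 and E12.5. Ribosomal protein genes of under 1000 bases scatter around the medians of other genes of their length at both stages. Those of 1000 to under 2000 bases lie mostly below the medians of their class, and the few longer ones lie below theirs or near them. Other genes of at least 8000 bases have medians above 0 (0.19 and 0.09).

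At E12.5, the same comparison over 16326 genes left no member called. None had an FDR under 0.05 (background 0.0184%), the smallest FDR being 0.954, and none had an unadjusted p under 0.05 in the lower direction (background 1.38%) or in the higher. DESeq2 and edgeR's exact test also called none. Of the 76 members, 72 had a log2 fold change below 0 (94.7%, background 48.8%), with a median of -0.080, but the genotypes were separated in that direction for Rpl7l1 alone (1.32%, background 15.2%). With the trend removed the median was -0.039, and 61 members were below 0 (80.3%, background 56.5%). None of them was lower at an unadjusted p under 0.05 (0%, background 1.79%).

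The direction at E12.5 turned with 1 cortex. Without Mboat7+/- replicate 2 the median was 0.048 and 13 of 76 members were below 0 (all genes, 48.7%). With the second cortex labelled Mboat7-/- left out, the median was 0.017 and 20 were below 0 (all genes, 51.1%). Without Mboat7+/- replicate 1 or the first cortex labelled Mboat7-/- it was -0.199 or -0.209. The median standard error of a member was 0.13 at this stage, against 0.06 at E11.5, so the E11.5 median of -0.144 is close to 1 standard error of a member here.

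Among the members named at E12.5, Rpl7l1 was at 158 and 163 CPM (Mboat7+/-) and 155 and 137 CPM (labelled Mboat7-/-). This was a log2 fold change of -0.14 (standard error 0.10, unadjusted p = 0.175, FDR = 0.954, edgeR quasi-likelihood test). Rps2, a small subunit protein near the mRNA entry site, was at 1593.5 and 2009.6 CPM against 1731.1 and 1391.4 CPM, the greatest fold change of the stage at -0.21 (standard error 0.16). Within each genotype its replicates lay further apart than the genotype means.

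Rpl22l1 was at 115 and 134 CPM against 124 and 96.8 CPM, a log2 fold change of -0.18 (standard error 0.13), and so differed in sign from E11.5. Rpl28 was at 509 and 604 CPM against 529 and 468 CPM (-0.16), and Rpl36al at 102 and 117 CPM against 105 and 94.3 CPM (-0.14). Rpl8 and Rpl7a, both of the large subunit, had log2 fold changes of -0.15 and -0.14. Each of these 5 genes overlapped between genotypes and had an FDR of 0.954.

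Members named at E11.5 were read again at E12.5. Rpl37 was at 293 and 354 CPM against 323 and 313 CPM, a log2 fold change of -0.02. Rpsa was at 1815.3 and 2193.2 CPM against 2033.7 and 1655.4 CPM (-0.12). The P stalk genes Rplp0, Rplp1 and Rplp2 had values of -0.06, -0.11 and -0.06, and Rpl5 and Rpl11 of -0.03 and -0.08. Across the 76 genes, fold changes at the 2 stages had a Pearson's r of -0.13 and a Spearman's rho of -0.05, a description over genes that share libraries. The 4 members above 0 at E12.5, named after their values were seen, were Rpl38, Rpl39, Rps28 and Rps29, with values up to 0.04.

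When the 8 cortices were fitted jointly, with a term for stage, no member had an FDR under 0.05 (0% of 15025 genes), also with DESeq2. All 76 members had a log2 fold change below 0 (100%, background 48.3%), the median was -0.110, and 12 were lower at an unadjusted p under 0.05 (15.8%, background 4.98%). The 3 smallest p-values belonged to Rpl28, with a log2 fold change of -0.18 (standard error 0.07, FDR = 0.326, edgeR quasi-likelihood test), Rpl27 (-0.18) and Rpl36 (-0.17), all of the large subunit. The number of 12 became 4 with the replicate block (5.26%, background 3.69%), 3 with Xist as a covariate (3.95%, background 3.26%) and 2 with the length and GC trend removed (2.63%, background 4.11%), shares near the background. With the trend removed the median was -0.02. The number was 0 without E12.5 Mboat7+/- replicate 2 (background 2.65%), 45 without E12.5 Mboat7+/- replicate 1 (59.2%, background 6.62%), and 44 without the first E12.5 cortex labelled Mboat7-/- (57.9%, background 6.6%). It lay between 2 and 5 without any 1 of the other 5 cortices (2.63% to 6.58%, background 2.95% to 4.21%).

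An interaction term asked whether the genotypes differed to another extent at the later stage. No member had an FDR under 0.05 (0% of all genes), nor did any with DESeq2 (background 0.126%). None had an unadjusted p under 0.05 in either direction (lower, background 2.82%). The difference was higher at E12.5 for 62 of 76 members (81.6%, background 50.6%), with a median of 0.06. The 3 smallest p-values were those of Rps28 (0.26, standard error 0.13, FDR = 0.888, edgeR quasi-likelihood test), Rpl38 (0.24) and Rpl37 (0.22). This median turned to -0.04 without E12.5 Mboat7+/- replicate 1 or without the first E12.5 cortex labelled Mboat7-/-. With the length and GC trend removed, 43 members were below 0 (56.6%), a share near that of all genes (52.9%).

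Genes that work with these proteins were read from lists. Over all tested genes, 51.1% (E11.5) and 48.8% (E12.5) were below 0. At an unadjusted p under 0.05, 6.07% and 1.38% were lower. Higher at that p were 1200 of 14935 genes at E11.5 and 2.85% at E12.5. Fau, which encodes a small subunit protein fused to a relative of ubiquitin, was at 472 and 456 CPM against 388 and 384 CPM at E11.5 (log2 fold change -0.27, FDR = 0.174, edgeR quasi-likelihood test), without overlap. Rack1, a scaffold on the small subunit, was at 1205 and 1395 CPM against 1309 and 1076 CPM at E12.5 (-0.12, FDR = 0.955), where the genotypes overlapped.

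Genes for translation factors and other mRNAs with the pyrimidine tract were below 0 for 12 of 16 at E11.5 (median -0.06) and 13 of 16 at E12.5 (median -0.07). An unadjusted p under 0.05 was reached by 4 lower genes at E11.5, led by Tpt1 (-0.17) and Eif3f (-0.20), and by 1 higher gene at E12.5, Gas5 (0.24), the host of many small nucleolar RNAs. Eef1d was next at E12.5 (-0.20).

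For 42 ribosome biogenesis factors the medians were -0.04 and -0.05, with 30 and 33 genes below 0. At E11.5, 3 were higher and 2 lower at an unadjusted p under 0.05, led by Tcof1 (0.18) and Mdn1 (0.24), both long transcripts that act in rRNA synthesis and in release of the large subunit. At E12.5, 1 was lower, Nolc1 (-0.20), and Ltv1 followed (-0.21). None of these 4 had an FDR under 0.05 (edgeR quasi-likelihood test).

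The 11 genes of RNA polymerase I, which transcribes ribosomal RNA, had medians of 0.004 and -0.06, and 1 of them, Polr1d (-0.26), was lower at an unadjusted p under 0.05 at E11.5. Polr1a was next (0.15), and at E12.5 Taf1d (0.26) and Taf1a (0.27) had the smallest p. In the mTORC1 pathway, 2 of 22 genes were higher and 2 lower at E11.5, where Akt1s1, an inhibitory subunit, had -0.26 and Tsc1, an upstream inhibitor, 0.25. At E12.5, 1 of 23 was higher, Pdcd4 (0.22), with Lamtor1 next (-0.18), and no gene of either list had an FDR under 0.05.

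Of the lists other than cell type markers, the p53 and ribosomal stress list alone had a median above 0 at E12.5. There 6 of 14 genes were higher at an unadjusted p under 0.05 (all genes, 2.85%) and none lower. By genotype 8 were separated with the Mboat7-/- label on the higher side (all genes, 16.9%), and the median was 0.10 (0.05 with the trend removed). Sesn2, which restrains mTORC1 and is induced by p53, was at 12.7 and 14.1 CPM against 18.8 and 18.5 CPM (log2 fold change 0.47). Ccng1, a p53 target, was at 33.4 and 32.9 CPM against 40.0 and 41.3 CPM (0.29), and the others, named after their values were seen, were Cdkn1a, Bbc3, Eda2r and Trp53inp1. None had an FDR under 0.05, the smallest being 0.954. At E11.5, 1 gene was higher, Mdm4 (0.49), and 1 lower, Cdkn1a (-0.34). Trp53 and Mdm2 themselves had log2 fold changes of -0.01 and 0.04 at E12.5. Below 0 at this stage were 3 of the 14, Trp53 and, named after their values were seen, Zmat3 (-0.10) and Pmaip1 (-0.12). For Zmat3 the genotypes were separated with the Mboat7-/- label on the lower side. The member Rps27l, also induced by p53, had -0.11 at E12.5 and overlapped between genotypes.

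Mitochondrial ribosomal proteins and respiratory chain subunits are likewise encoded by families of mostly short mRNAs. Of 78 mitochondrial ribosomal protein genes, 73 were below 0 at E11.5 (median -0.14) and 64 at E12.5 (median -0.10), and 11 and 0 were lower at an unadjusted p under 0.05. Of all genes, 51.1% and 48.8% were below 0, and 6.07% and 1.38% were lower at that p. Mrpl23 (-0.41) and Mrpl38 (-0.33) led at E11.5, and Mrpl18 (-0.22) and Mrpl20 (-0.24) at E12.5. All 45 respiratory chain subunit genes tested at E11.5 were below 0 (median -0.20, 22 lower at an unadjusted p under 0.05), as were 44 of 46 at E12.5 (median -0.11, none at that p). Cox6a1 (-0.30) and Cox5b (-0.26) led at E11.5, and Ndufb6 (-0.22) and Cox7b (-0.22) at E12.5. With the length and GC trend removed these medians were -0.05 and -0.07 at E11.5 and -0.09 and -0.06 at E12.5.

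Cell composition was read from marker lists beside these results. Red blood cell precursors carry globin mRNA and many ribosomes. The 8 erythroid markers in the E11.5 table (2 at 0 in every cortex) summed to 6721 and 5094 CPM (Mboat7+/-) and 3547 and 3795 CPM (labelled Mboat7-/-), and 5 of 6 tested were lower at an unadjusted p under 0.05, led by Hbb-y (-0.75) and Hba-x (-0.79). At E12.5 the 9 markers summed to 5310 and 7503 CPM against 5333 and 3949 CPM, and 6 of 9 were lower, led by Alas2 (-0.62) and Hbb-bh1 (-1.04). Cortices ranked by this sum were in the order of their ribosomal protein share at E12.5, but at E11.5 the order was reversed within each genotype. Its part in the result was not tested.

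The 6 neuronal markers summed to 1779 and 2037 CPM against 1191 and 1908 CPM at E11.5 (1 lower, Tubb3, -0.46, with Stmn2 next, -0.38) and to 3360 and 3082 CPM against 3239 and 3391 CPM at E12.5 (1 higher, Neurod6, 0.46, with Dcx next, 0.18). Radial glial markers lay between 3240 and 3839 CPM at E11.5, between 2653 and 2886 CPM at E12.5, and overlapped between genotypes at both stages. Of these 7, Pax6 (-0.26) and Hes5 (-0.25) were lower at E11.5, and at E12.5 Nes was lower (-0.32) and Pax6 higher (0.22), at an unadjusted p under 0.05. The 4 intermediate progenitor markers lay between 269 and 398 CPM, then between 436 and 526 CPM, with Eomes lower at E11.5 (-0.34, Neurog2 next, -0.27) and Neurod1 higher at E12.5 (0.28, Neurog2 next, 0.20).

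Mesenchymal markers summed to 1546 and 1533 CPM against 1727 and 1970 CPM at E11.5, with 4 of 8 higher at an unadjusted p under 0.05, led by Col3a1 (0.36) and Postn (1.12). At E12.5 they summed to 667 and 504 CPM against 641 and 718 CPM and overlapped, with Col1a2 (0.24) and Dcn (0.41) leading and none under that p. The 5 endothelial markers summed to 223 and 209 CPM against 246 and 241 CPM at E11.5, where the genotypes were separated. There 1 was higher (Cdh5, 0.24, Kdr next, 0.17). At E12.5 they summed to 198.8 and 187 CPM against 199.5 and 223 CPM (Tek, 0.24, and Kdr, 0.13, none under that p). The nearest cortices of the 2 genotypes, at 198.8 and 199.5 CPM, were closer there than the replicates of either genotype. The 5 microglial markers stayed at or below 40.1 CPM in every cortex, with none under that p at E11.5 (Csf1r, 0.15, and C1qa, 0.19, led) and Cx3cr1 (0.40) and C1qa (0.51) higher at E12.5. The part of these cell types in the ribosomal protein result was not tested.

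Levels were last compared between members per kilobase of transcript, and between the tables. The median member was at 670.2 CPM per kilobase at E11.5 and 722 at E12.5, and 58 and 62 of the 76 lay within 2-fold of it. The highest at E11.5 were Rpl41 (2197 CPM per kilobase), Rps2 (1865) and Rps15 (1525), and at E12.5 Rps2 (1537), Rplp0 (1499) and Rplp1 (1426). At E11.5 single cortices ranged from 1686 to 2004 for Rps2 and from 2040 to 2376 for Rpl41, without overlap, while the 3 highest overlapped at E12.5. Rpl7l1 was lowest at both stages (67.9 and 58.8), followed by Rps15a (81.7 and 97.0), then by Rpl22l1 (100.5) at E11.5 and Rps20 (139) at E12.5. For Rps15a and Rps20 this divides by the annotated lengths given above.

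**Figure D5:**
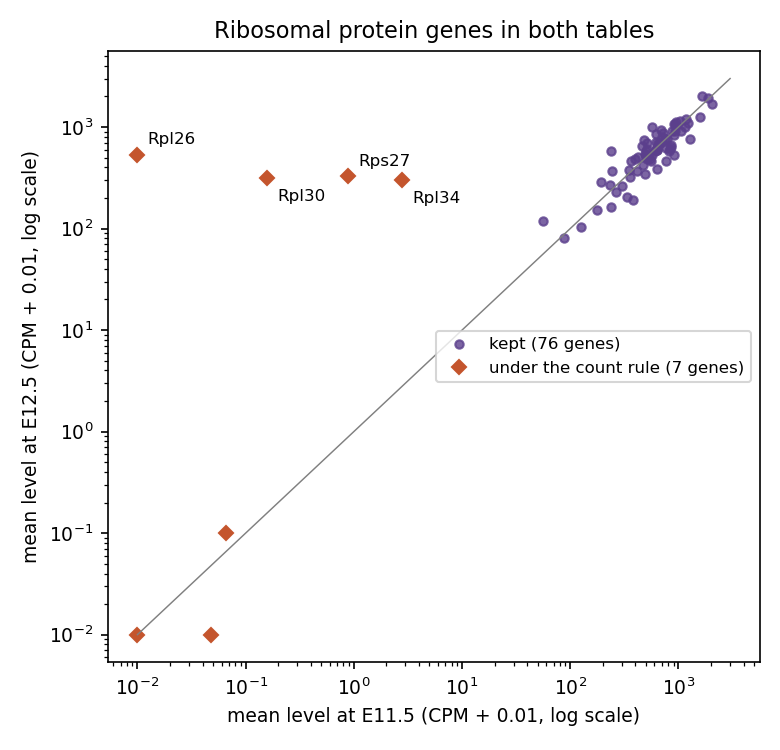
Mean level (CPM, log axes, with 0.01 added) of the ribosomal protein genes listed in both tables, E11.5 against E12.5; circles are the 76 genes kept and diamonds the 7 under the count rule, and the line marks equal levels. Most genes lie along the line, while Rpl26, Rpl30, Rps27 and Rpl34 are at or near 0 at E11.5 and at 299.8 to 531 CPM at E12.5.

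Of the 7 genes under the count rule, 4 were near 0 in 1 table alone. Rpl26 had 0 counts in all 4 E11.5 cortices and between 10365 and 13048 at E12.5. Rpl30 had 2 to 7 counts against 6071 to 7659, Rps27 14 to 35 against 6145 to 8001, and Rpl34 56 to 91 against 5888 to 7405. All encode proteins that every ribosome carries, and the low values were found in both genotypes. Stretches of 75 bases shared with another annotated gene made up 57.5%, 24.5%, 98.5% and 30.6% of their principal transcripts. Among the 76 members kept, 74 shared such a stretch and 29 did so over more than 50% of the transcript, with a median of 41.2%, so their levels also depend on how reads from processed copies were counted. The other 3, Rpl3l, Rpl10l and Rpl39l, are known from muscle or testis and had at most 6 counts in any cortex.

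The median ratio of a member's level at E12.5 to that at E11.5 was 0.981, and 74 of 76 lay within 2-fold of it. The extremes were Rpl21 (2.44) and Rpl22l1 (2.12) above and Rps29 (0.502) below, all 3 chosen for these values. Rpl21 shares stretches with 61 other annotated genes and Rps2 with 50, more than most members. Counts for all of these genes are uncertain to that extent, and since provider, platform and the genes listed differ between the tables, no difference between stages was tested.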

How the data were processed

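RNA-seq of 8 cortices was analysed from the deposited tables. The authors deposited raw counts of reads per gene, without normalization, in 1 table per stage (23420 gene symbols at E11.5, 78298 Ensembl identifiers at E12.5, of which 51498 were given a symbol here). The submitters' processing notes name HISAT2 and Subread with the builds mm10 and GRCm39. Which build or annotation belongs to which table is not given in the sources used here.

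Counts were fitted with edgeR 4.0.16 in R 4.3.3 by its quasi-likelihood test, after TMM normalization and filterByExpr at a minimum count of 10, and p-values were adjusted over all tested genes after Benjamini and Hochberg. CPM used TMM library sizes, except for the summed markers and genes under the filter, which used total counts, and deviations per cortex are of log2(CPM + 0.5). Fitted alternatives were RLE, upper-quartile and total-count scaling, TMM without the members, DESeq2 1.42.0, the exact test, other filters, the replicate block, splines of 5 degrees of freedom on length and GC content, Xist as a covariate, each cortex left out, and, chosen after seeing the data, the earlier quasi-likelihood test and a crossed pairing. Fits were tested on simulated data. Length, GC content and shared stretches are of the best supported APPRIS principal transcript in GENCODE vM21 (the longest in ties), and were found for 99.2% of tested genes at E11.5 and 95.0% at E12.5. Tables were handled with pandas 2.3.3 and numpy 2.4.6 (Python 3.11.15), and plots made with matplotlib 3.10.9.

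The members and lists were chosen with earlier results of these data known. The rule named Rpsa and the P stalk genes, the genes of the role lists, 5 members per stage by smallest p and 5 by fold change, the 3 highest and 3 lowest per kilobase, 3 members of each joint fit and 2 genes of each other list per stage. Genes named outside the rule are marked in the text. Results of some genes the rule names are not reported here. Labels give the replicate number as a batch, which pairs the cortices. Within a stage, cortices of the same number had deviations that correlated at 0.083 (E11.5) and -0.20 (E12.5) across genes. No pair of cortices agreed within sampling noise (chi-square per degree of freedom 4.64 to 25.8). Labels call the cortices biological replicates. With 2 per genotype, p-values set the genotype difference against a spread between embryos that is estimated in part from all tested genes.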

Additional observations from a re-analysis of the deposited data

How the results depend on the processing

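The E11.5 median of the ribosomal protein genes stayed below 0 in every alternative run. It moved beyond the spread between replicates when the length and GC trend was removed, to -0.021 without and -0.021 with the replicate block, and the members lower at an unadjusted p under 0.05 fell from 40 to 7 and 8. Members with an FDR under 0.05 at E11.5, 0 in the reported fit, numbered 2 with DESeq2, 1 with the exact test, 8 with the replicate block, 3 with block and trend together, and 0 to 7 with 1 cortex left out. Of all genes, 1.19%, 1.18%, 3.38%, 2.81% and, in the fit with 7, 7.72% had such an FDR, so the 1, the 3 and the 7 are near the background. With 1 cortex left out, lower members at an unadjusted p under 0.05 ran from 11 to 64. The share difference between genotypes at E11.5 ran from -0.608 to -0.297 percentage points with 1 cortex left out, and at E12.5 from -0.54 to 0.175.

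The E12.5 median, -0.080, ran from -0.209 to 0.048 with 1 cortex left out, above 0 without Mboat7+/- replicate 2 or Mboat7-/- replicate 2. At E12.5 a crossed pairing, chosen after seeing the data, called 1 member (1.32%, all genes 0.968%), with 23 lower at an unadjusted p under 0.05 (30.3%, all genes 5.51%). The replicate block called none there (all genes 0.196%). Over both stages 12 members were lower at an unadjusted p under 0.05 (15.8%, all genes 4.98%). The number was 4 with the replicate block (5.26%, all genes 3.69%) and 2 with the trend removed (2.63%, all genes 4.11%). It was 1 with both (1.32%, all genes 3.47%) and 3 with Xist as a covariate (3.95%, all genes 3.26%). With 1 cortex left out it ran from 0 (all genes 2.65%) to 45 (59.2%, all genes 6.62%). For the interaction, leaving out 1 cortex gave medians from -0.044 to 0.183. The replicate block changed no other call of a median or count, and the earlier quasi-likelihood test none. Why these values moved was not tested, except that fewer cortices leave fewer degrees of freedom. With 2 cortices per genotype, the E12.5 median of -0.080 is smaller in size than the median standard error of a member, 0.13. At E11.5 the median of -0.144 is larger in size than that error, 0.06, but no member had an FDR under 0.05 in the reported fit.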
